A study of Mus musculus with 16 samples.

Results

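Lipid-associated macrophages are a state that macrophages take up in fat when they clear lipid released by adipocytes, and 8 genes that mark it were followed here in inguinal white adipose tissue (iWAT) of SOD1G93A mice with and without leptin haploinsufficiency. The genes were Trem2, Gpnmb, Spp1, Itgax, Lgals3, Cd68, Cd9 and Atp6v0d2, taken by name as known genes of this cell state. All 8 were among the 54752 gene IDs counted, and all 8 passed the filter on low counts that left 19736 genes for testing. Each was also read against Adgre1, which encodes F4/80, the surface protein by which mouse macrophages are usually recognised.

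TREM2 is a receptor that binds lipids and apolipoproteins on the macrophage surface and signals through the adaptor DAP12 (Tyrobp), and macrophages with this signal enlarge their lysosomes and take up lipid in obese fat. GPNMB is a glycoprotein of lysosomes, CD68 a heavily glycosylated lysosomal membrane protein, and ATP6V0D2 the form of the d subunit of the proton pump V-ATPase found in macrophages and osteoclasts. Osteopontin (Spp1) is secreted and binds integrins and CD44, galectin-3 (Lgals3) binds sugars on cell surfaces and damaged lysosomes, CD9 is a tetraspanin of the plasma membrane, and integrin alpha X (Itgax, CD11c) marks dendritic cells as well as the macrophages of obese fat.

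The 16 libraries were from female C57BL/6 mice aged 90 days, 4 in each of 4 genotypes. WT mice had neither mutation. Lepob/+ mice had 1 functional copy of Lep, the other copy being the ob allele with its premature stop. SOD1G93A mice had many copies of a human SOD1 transgene in mutant form, a model of amyotrophic lateral sclerosis in which every tissue carries the transgene, and SOD1G93A-Lepob/+ mice had both. Mouse Sod1 had a log2 fold change of -0.15 (SE 0.18) in SOD1G93A against WT and Lep one of 0.12 (SE 0.59) in Lepob/+ against WT. Whether transgene reads were counted in Sod1 was not examined, so these values do not check the labels. The libraries held 36795376 to 61886313 counts each, and levels are given as CPM, counts scaled to the same library total in each library after TMM correction of that total. In bulk tissue, fewer cells of a type and less RNA per cell cannot be told apart.

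The tissue itself was read as fat in all 16 libraries, with the adipocyte gene Adipoq at 1209 to 3262 CPM. Some libraries differed in what else they held. Genes of lymph node stroma averaged 4.18 to 5.06 on the log2 CPM scale in 6 libraries (WT 1 and 2, Lepob/+ 3 and SOD1G93A 1, 2 and 4) and -1.09 to 0.04 in the other 10, which included all 4 SOD1G93A-Lepob/+ libraries. Lepob/+ 4 was rich in muscle transcripts, with Acta1 at 44647 CPM against at most 1298 CPM elsewhere. The library labelled SOD1G93A-Lepob/+ replicate 3 had no Xist counts and did have Y chromosome counts, against its label as female, and was the 1 of 16 that did so.

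The stretch before the start of 3 of these genes is shown because their levels ran in different ways across the libraries below: over all 16, Trem2 and Cd68 followed the core macrophage genes and Itgax did not, though in the 10 libraries poor in lymph node genes Itgax had a Pearson's r of 0.66 with Trem2 and 0.48 with Cd68. Each window holds the 250 bases before the start in the RefSeq table for GRCm38.p6, read 5' to 3' on the gene's own strand, and capitals mark matches of GAGGAA (the core bound by PU.1, the factor that sets myeloid identity) or TGACTCA (the AP-1 site), on either strand. The Trem2 window is chr17:48346151-48346400 on the plus strand, that of Cd68 chr11:69666171-69666420 on the minus strand, and that of Itgax chr7:128129300-128129549 on the plus strand.
Trem2: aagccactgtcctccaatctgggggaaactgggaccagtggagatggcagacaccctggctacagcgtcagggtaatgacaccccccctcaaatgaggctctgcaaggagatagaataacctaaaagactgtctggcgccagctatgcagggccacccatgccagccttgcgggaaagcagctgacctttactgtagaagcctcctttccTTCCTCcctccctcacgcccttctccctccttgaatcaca
Cd68: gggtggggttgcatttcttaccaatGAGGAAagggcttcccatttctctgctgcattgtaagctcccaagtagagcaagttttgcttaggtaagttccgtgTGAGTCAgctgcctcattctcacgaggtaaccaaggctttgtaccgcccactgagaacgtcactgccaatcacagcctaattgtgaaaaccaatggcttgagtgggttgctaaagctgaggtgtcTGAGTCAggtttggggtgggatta
Itgax: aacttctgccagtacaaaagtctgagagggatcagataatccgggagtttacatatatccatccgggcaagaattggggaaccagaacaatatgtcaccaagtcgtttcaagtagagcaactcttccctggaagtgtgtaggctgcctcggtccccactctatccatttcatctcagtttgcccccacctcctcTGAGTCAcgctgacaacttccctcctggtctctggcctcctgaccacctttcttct

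A PU.1 core stood 40 bases before the start of Trem2 and 225 bases before that of Cd68, and AP-1 sites stood 149 and 24 bases before the start of Cd68 and 56 bases before that of Itgax. The table held windows for 7 of the 8 genes, all but Atp6v0d2, and 8 windows in all since Spp1 had 2 starts. PU.1 cores were in 3 of these 8 windows and in 23.3% of all 32851 windows, and AP-1 sites in 2 of 8 and in 4.46% of all. The third PU.1 core stood 113 bases before a start of Spp1. Over all libraries that gene followed the Schwann cell list more closely than the macrophage core, as given below. Whether a motif went with a gene's levels was not tested. CACGTG, the core of the E-box bound by TFEB and its relatives, and TCATGTG, the M-box bound by MITF, were in 0 of 8 windows and in 6.02% and 3.25% of all windows. A match in letters is a description and not a binding site.

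Scaled per length (TPM), the 8 genes and Adgre1 spanned a wide range. Lgals3, Cd68 and Cd9 had median levels of 154, 144 and 135 TPM over the 16 libraries. These 3 were not set apart from each other, since Lgals3 stood above Cd68 in 10 of 16 libraries and Cd68 above Cd9 in 10 of 16. Adgre1 followed at 58.7 TPM, below Cd9 in 15 of 16 libraries. Gpnmb (9.57 TPM), Itgax (6.85 TPM) and Spp1 (5.37 TPM) came next in overlapping order, Gpnmb above Itgax in 11 of 16 libraries and Itgax above Spp1 in 10 of 16. Trem2 (3.15 TPM) and Atp6v0d2 (1.56 TPM) were lowest, with Spp1 above Trem2 in 15 of 16 libraries and Trem2 above Atp6v0d2 in 14 of 16. The lowest gene rested on few counts, 30 to 178 Atp6v0d2 counts per library, against 2022 to 7564 for Lgals3.

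**Figure D1:**
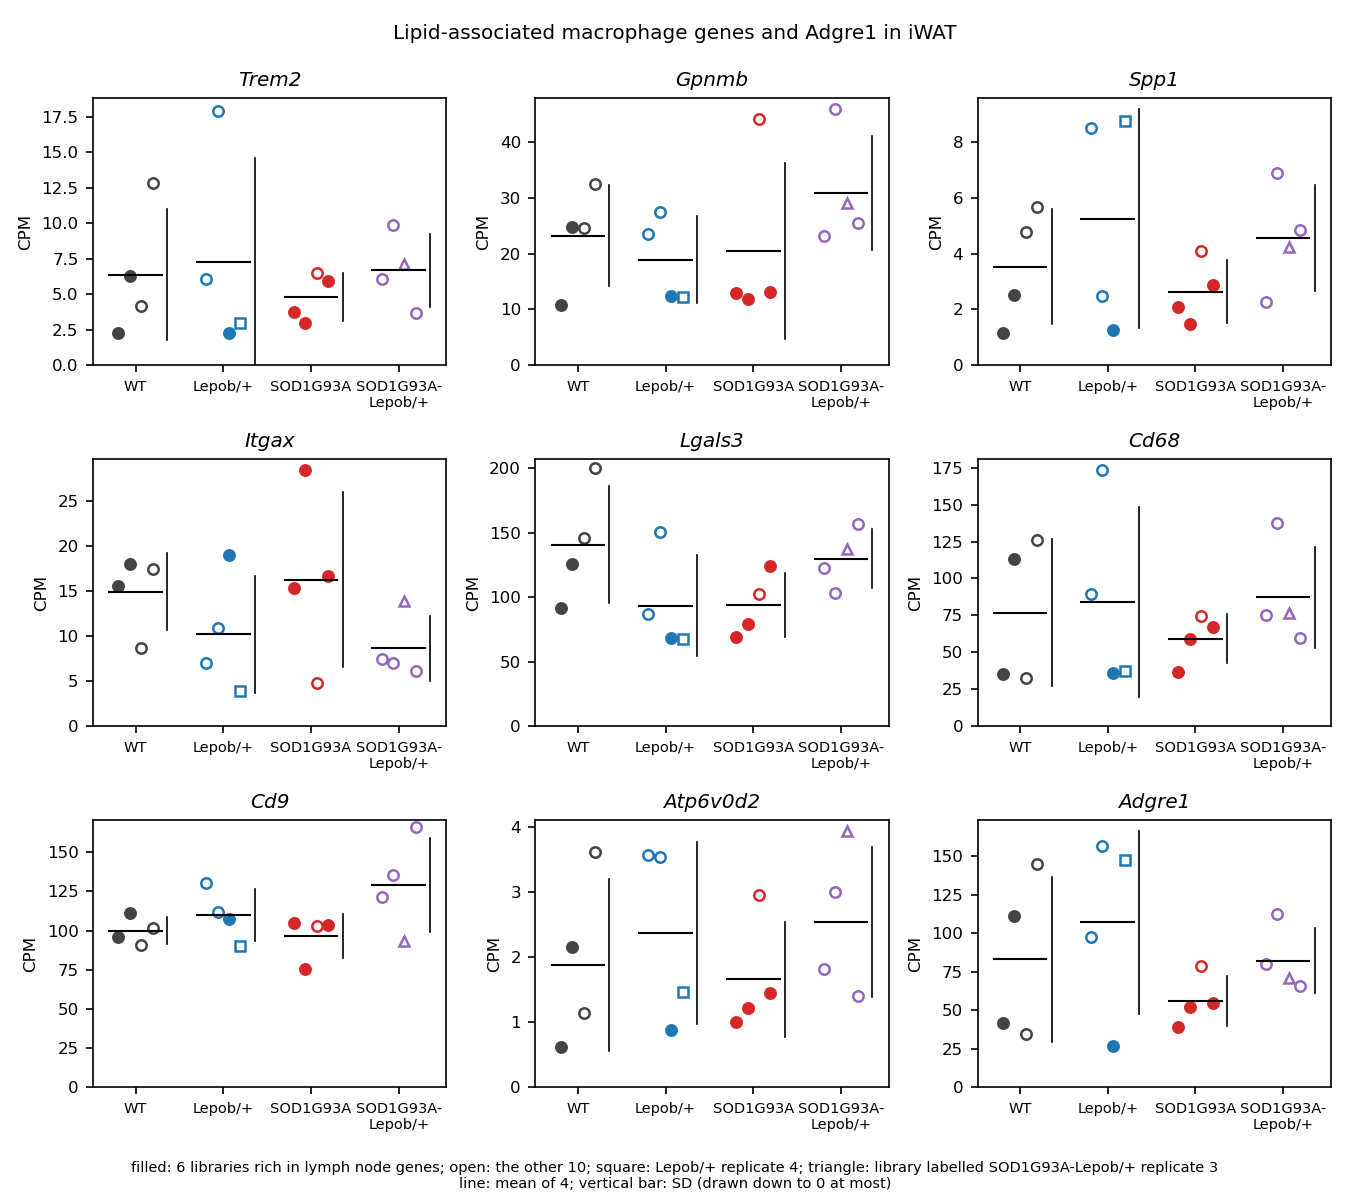
Level of each of the 8 genes and of Adgre1 in CPM (vertical axis, from 0) in the 16 libraries, grouped by genotype (horizontal axis); points are libraries, horizontal lines means of 4 and vertical bars SD. The genotypes overlapped for every gene, and Itgax was high in the filled points, the 6 libraries rich in lymph node genes.

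Trem2 (ENSMUSG00000023992, GRCm38 chr17:48346401-48354147) varied more among mice of 1 genotype than between genotypes. Its levels were 2.25, 6.26, 4.18 and 12.8 CPM in the 4 WT libraries and 6.03, 17.9, 2.28 and 2.93 CPM in Lepob/+. They were 3.75, 2.94, 6.53 and 5.93 CPM in SOD1G93A and 6.04, 9.89, 7.10 and 3.65 CPM in SOD1G93A-Lepob/+. The highest library, Lepob/+ 2, and the third lowest, Lepob/+ 4, were of the same genotype, and all 4 genotypes overlapped. On the log2 scale the fold change was 0.20 (SE 0.62) in Lepob/+ against WT, -0.41 (SE 0.62) in SOD1G93A against WT and 0.48 (SE 0.62) in SOD1G93A-Lepob/+ against SOD1G93A. The 95% interval of the last, -0.86 to 1.82, left room for a change of either sign. Without Lepob/+ 2, the value in Lepob/+ against WT was -0.76.

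Cd68 (ENSMUSG00000018774, chr11:69664213-69666153) was high in the same libraries as Trem2 in WT and in SOD1G93A. It stood at 35.5, 113, 32.3 and 126 CPM in WT, at 89.5, 173, 36 and 37.2 CPM in Lepob/+, at 36.6, 59.0, 74.4 and 67.2 CPM in SOD1G93A and at 75.2, 137, 76.8 and 59.9 CPM in SOD1G93A-Lepob/+. The WT values alone ran from 32.3 to 126 CPM, a span that held all but 2 values of the other genotypes. Its log2 fold change was 0.13 (SE 0.54) in Lepob/+ against WT, -0.37 (SE 0.54) in SOD1G93A against WT and 0.56 (SE 0.54) in SOD1G93A-Lepob/+ against SOD1G93A.

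Atp6v0d2 (ENSMUSG00000028238, chr4:19876841-19922605) was at 0.62, 2.16, 1.14 and 3.62 CPM in WT and at 3.58, 3.54, 0.87 and 1.47 CPM in Lepob/+. It was at 1.00, 1.22, 2.95 and 1.45 CPM in SOD1G93A and at 1.82, 3.00, 3.95 and 1.40 CPM in SOD1G93A-Lepob/+. The genotypes overlapped in each pair compared, and the largest difference, SOD1G93A-Lepob/+ against SOD1G93A, was 0.61 on the log2 scale (SE 0.57). Atp6v0d1, the d subunit that every cell uses, was at 90.4 to 138 CPM in the same libraries.

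Gpnmb (ENSMUSG00000029816, chr6:49036546-49070929) was nearly level in 3 of the SOD1G93A libraries and far higher in the fourth. It was at 10.8, 24.8, 24.6 and 32.6 CPM in WT, at 23.5, 27.4, 12.3 and 12.1 CPM in Lepob/+, at 13, 11.8, 44.1 and 13 CPM in SOD1G93A and at 23.2, 45.8, 29.0 and 25.5 CPM in SOD1G93A-Lepob/+. SOD1G93A 3, the library at 44.1 CPM, was the only SOD1G93A library poor in lymph node genes. The log2 fold change of SOD1G93A-Lepob/+ against SOD1G93A was 0.59 (SE 0.46), and it was 1.30 without SOD1G93A 3 (edgeR adjusted p = 0.0851). With the lymph node stroma genes as a covariate it was 0.06 (adjusted p = 0.999). Against Lepob/+, the log2 fold change of SOD1G93A-Lepob/+ was 0.71 (SE 0.46, adjusted p = 0.691).

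Lgals3 (ENSMUSG00000050335, chr14:47367751-47386160) had lower means in both single mutants than in WT and in SOD1G93A-Lepob/+, with overlap. It was at 91.4, 126, 146 and 200.0 CPM in WT (141 ± 45.4, SD, n = 4), at 86.8, 151, 68.5 and 67.3 CPM in Lepob/+ (93.4 ± 39.3), at 69.1, 79.3, 103 and 124 CPM in SOD1G93A (93.9 ± 24.7) and at 122, 103, 137 and 157 CPM in SOD1G93A-Lepob/+ (130.0 ± 22.9). Its log2 fold change was -0.59 (SE 0.29) in Lepob/+ against WT and -0.59 (SE 0.29) in SOD1G93A against WT, with unadjusted p of 0.0603 and 0.0633. The interaction of both mutations, how far the double mutant departed from the sum of both single effects, was 1.06 on the log2 scale (SE 0.41, unadjusted p = 0.0214, edgeR adjusted p = 0.564). Over the leave-one-out fits it ran from 0.87 to 1.39, positive in each, and it missed the adjusted threshold in each.

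Itgax (ENSMUSG00000030789, chr7:128129547-128150657) had its highest levels in the libraries that held lymph node genes. It was at 15.5, 18.0, 8.70 and 17.5 CPM in WT, at 7.0, 10.9, 19.0 and 3.86 CPM in Lepob/+, at 15.3, 28.4, 4.73 and 16.6 CPM in SOD1G93A and at 7.39, 7.05, 13.9 and 6.09 CPM in SOD1G93A-Lepob/+. The 6 libraries rich in lymph node genes held 15.3 to 28.4 CPM (median 17.3) and the other 10 held 3.86 to 17.5 CPM (median 7.22). Only WT 4 of the 10 reached the range of the 6. The log2 fold change of SOD1G93A-Lepob/+ against SOD1G93A was -0.91 (SE 0.52, adjusted p = 0.378). With the lymph node stroma genes as a covariate it was 0.10 (adjusted p = 0.999). Since SOD1G93A 3 was the single SOD1G93A library among the 10, the genotype difference within them rests on 1 value, 4.73 CPM, against 6.09 to 13.9 CPM in SOD1G93A-Lepob/+.

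The dendritic cell list, which does not hold Itgax, moved in the same libraries. Its mean log2 CPM spanned 2.35 to 4.02 (WT), 1.37 to 4.10 (Lepob/+), 2.04 to 4.23 for the SOD1G93A libraries and 1.63 to 1.86 for the SOD1G93A-Lepob/+ libraries. Set against SOD1G93A, the double mutant had lower values for 9 of its 10 genes and a higher one for 1 (median log2 fold change -1.60, against 0.00 over all genes), none past the adjusted threshold. Xcr1, the chemokine receptor of cross-presenting dendritic cells, had a log2 fold change of -2.82 (SE 0.84, adjusted p = 0.261). The lymph node stroma list spanned -0.49 to 4.51 (WT), -1.09 to 4.83 (Lepob/+), -0.48 to 5.06 for the SOD1G93A libraries and -1.05 to 0.04 for the SOD1G93A-Lepob/+ libraries. The lymph node stroma covariate holds no gene of the dendritic cell list, so the part of dendritic cells in the Itgax values was not tested. Of the lymph node rich libraries 3 were SOD1G93A and 0 SOD1G93A-Lepob/+. The covariate therefore cannot fully tell lymph node content and genotype apart between these 2 genotypes.

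Spp1 (ENSMUSG00000029304, chr5:104435118-104441050) was highest in 2 Lepob/+ libraries. It was at 1.16, 2.5, 4.78 and 5.69 CPM in WT, at 8.49, 2.47, 1.26 and 8.76 CPM in Lepob/+, at 2.07, 1.47, 4.09 and 2.89 CPM in SOD1G93A and at 2.26, 6.90, 4.24 and 4.86 CPM in SOD1G93A-Lepob/+. Lepob/+ 4 and Lepob/+ 1 had the highest levels, whereas Lepob/+ 2, the library highest in Trem2 and Cd68, held 2.47 CPM. The log2 fold change was 0.57 (SE 0.61) in Lepob/+ against WT and 0.79 (SE 0.61) in SOD1G93A-Lepob/+ against SOD1G93A, and -0.28 in the latter with the lymph node covariate. An unconfirmed transcript on the same strand, Gm42793, shares 309 bp of exon with Spp1 and had at most 5 counts in a library.

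Cd9 (ENSMUSG00000030342, chr6:125460266-125494791) varied least between mice. It was at 96.1, 111, 90.7 and 102 CPM in WT, at 130.2, 112, 108 and 89.9 CPM in Lepob/+, at 105, 75.2, 103 and 103 CPM in SOD1G93A and at 121, 136, 93.5 and 166 CPM in SOD1G93A-Lepob/+. SOD1G93A-Lepob/+ libraries averaged 129 ± 30.2 CPM and SOD1G93A libraries 96.6 ± 14.3 CPM (SD, n = 4), and 3 of the 4 SOD1G93A-Lepob/+ libraries stood above all 4 SOD1G93A libraries. The one below was that labelled replicate 3. The log2 fold change was 0.42 (SE 0.17, 95% interval 0.05 to 0.79, unadjusted p = 0.0280, edgeR adjusted p = 0.265).

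Mammary epithelium, which lies within this fat pad in female mice, moved with Cd9. The mean of 12 mammary genes ran from 4.29 to 5.51 on the log2 CPM scale in SOD1G93A and from 4.28 to 6.15 in SOD1G93A-Lepob/+, where the lowest value was in the library labelled replicate 3 and the highest in replicate 4, as for Cd9. Of these 12 genes 9 were higher in SOD1G93A-Lepob/+ than in SOD1G93A, 6 of them at an unadjusted p under 0.05, as were 4.19% of all genes, and none past the adjusted threshold. Csn3, the milk protein kappa-casein, had a log2 fold change of 1.35 (SE 0.54, adjusted p = 0.262). With the mammary list as a covariate the Cd9 value was 0.26 (adjusted p = 0.329). The antisense transcript Gm26728, which shares 218 bp of exon with Cd9, had at most 13 counts.

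Adgre1 (ENSMUSG00000004730, chr17:57358691-57483527) itself was at 41.7, 111, 34.4 and 145 CPM in WT, at 97.5, 156, 26.6 and 148 CPM in Lepob/+, at 39.3, 51.9, 78.4 and 54.4 CPM in SOD1G93A and at 79.8, 113, 70.6 and 65.6 CPM in SOD1G93A-Lepob/+. Its highest and lowest levels were both in Lepob/+. The log2 fold change was 0.37 (SE 0.51) in Lepob/+ against WT, -0.57 (SE 0.51) in SOD1G93A against WT and 0.55 (SE 0.51) in SOD1G93A-Lepob/+ against SOD1G93A.

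Read against Adgre1, Cd68 varied least of the 8, with a coefficient of variation of 24.8% over 16 libraries. It stood at 85.1 to 136 counts per 100 Adgre1 counts in 15 libraries and at 25.2 in Lepob/+ 4. Trem2 ran from 5.39 to 12.2 per 100 in the same 15 libraries and was 1.99 in Lepob/+ 4, and Atp6v0d2 ran from 1.48 to 5.59 and was 0.99. Lepob/+ 4 was the lowest of all 16 libraries in this ratio for 7 of the 8 genes, all but Spp1. Csf1r, the receptor for the growth factor CSF1 that macrophages need, was at 385 to 654 per 100 in 15 libraries and at 105 in Lepob/+ 4, so that its Adgre1 count was high for its other macrophage genes too. Pearson's r between Cd68 and Adgre1 in log2 CPM was 0.76 over 16 libraries and 0.96 without Lepob/+ 4, and between Trem2 and Adgre1 0.70 and 0.88.

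Ratios to Adgre1 ran over a range for the other 5 genes that was like that of Atp6v0d2 for Gpnmb and wider for the rest. Without Lepob/+ 4, Gpnmb ran from 17.5 to 71.5 counts per 100 Adgre1 counts, Lgals3 from 89.0 to 424, Cd9 from 70.2 to 405, Spp1 from 1.58 to 13.9 and Itgax from 6.04 to 71.4. The highest Gpnmb, Spp1 and Lgals3 values were all in WT 3, which had the second lowest Adgre1 level, and the highest Cd9 and Itgax values were in Lepob/+ 3, which had the lowest.

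**Figure D2:**
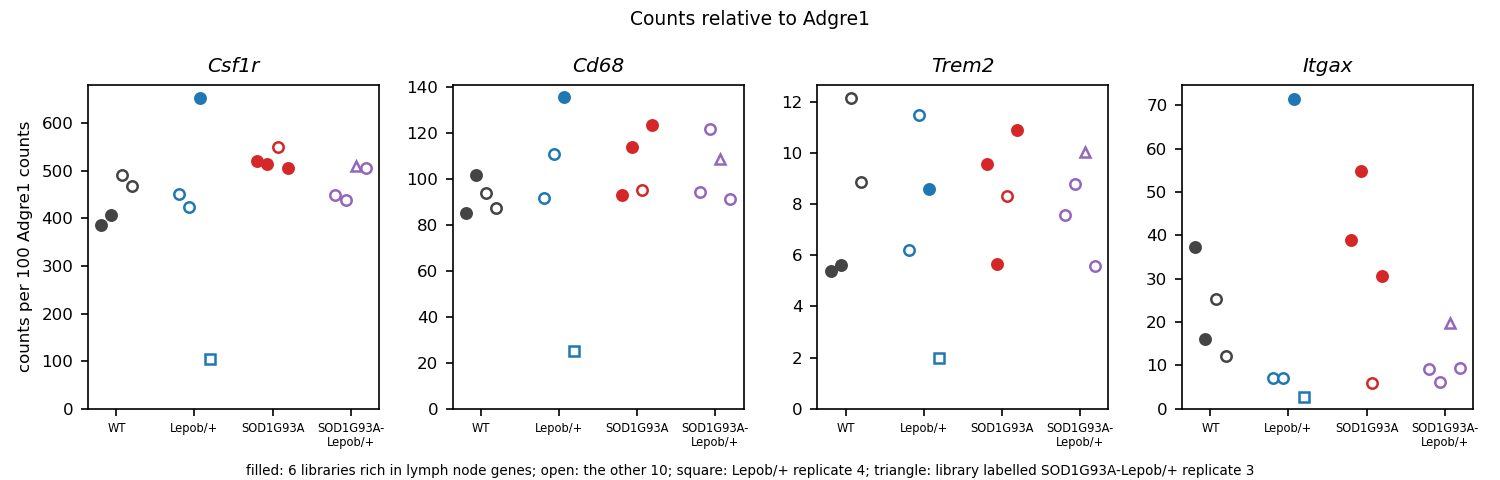
Counts of Csf1r, Cd68, Trem2 and Itgax per 100 Adgre1 counts (vertical axes, from 0) in each library by genotype. Lepob/+ replicate 4 (square) was the lowest library in all 4 panels, and the 5 highest Itgax ratios were all in filled points, libraries rich in lymph node genes.

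Compared across all genes, none of the 8 genes changed past the threshold in any comparison. With edgeR's quasi-likelihood test and Benjamini-Hochberg adjustment over 19736 genes, 0 of 8 passed an adjusted p of 0.05 in Lepob/+ against WT, SOD1G93A against WT, SOD1G93A-Lepob/+ against SOD1G93A, SOD1G93A-Lepob/+ against Lepob/+ and the interaction, as did 0% of all genes in each. At an unadjusted p under 0.05 the counts were 0 of 8 against 4.37% of all genes, 0 against 2.56%, 1 (Cd9, higher) against 16.5% (4.19% higher and 12.3% lower), 0 against 8.24%, and 1 (Lgals3, positive) against 7.98% (2.16% positive), in that order. No member and not Adgre1 separated the libraries of 2 genotypes without overlap. Of all genes, 0.532% did so as higher and 0.375% as lower in Lepob/+ against WT, 1.37% and 0.684% in SOD1G93A against WT, 3.58% and 3.6% in SOD1G93A-Lepob/+ against SOD1G93A, and 1.2% and 1.15% against Lepob/+.

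DESeq2 called 0 of the 8 in each comparison. Fitted on all libraries it called 0.00325%, 0.00976%, 2.85%, 0.232% and 0.205% of all genes in the 5 comparisons, in the order above, and fitted on only the 2 genotypes compared 0.0174%, 0.0626%, 7.95% and 0.176% in the first 4. limma voom with quality weights called 3 in SOD1G93A-Lepob/+ against SOD1G93A and 0 elsewhere. They were Cd9 (log2 fold change 0.39, adjusted p = 0.0422), Gpnmb (1.03, adjusted p = 0.0212) and Itgax (-1.11, adjusted p = 0.0153). That fit called 31.5% of all genes in the same comparison, 0.0101% in SOD1G93A-Lepob/+ against Lepob/+ and 0% in the others, and it gave SOD1G93A 3 a weight of 0.263 against 1.03 to 2.41 for the other 3 SOD1G93A libraries, which are those rich in lymph node genes.

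**Figure D3:**
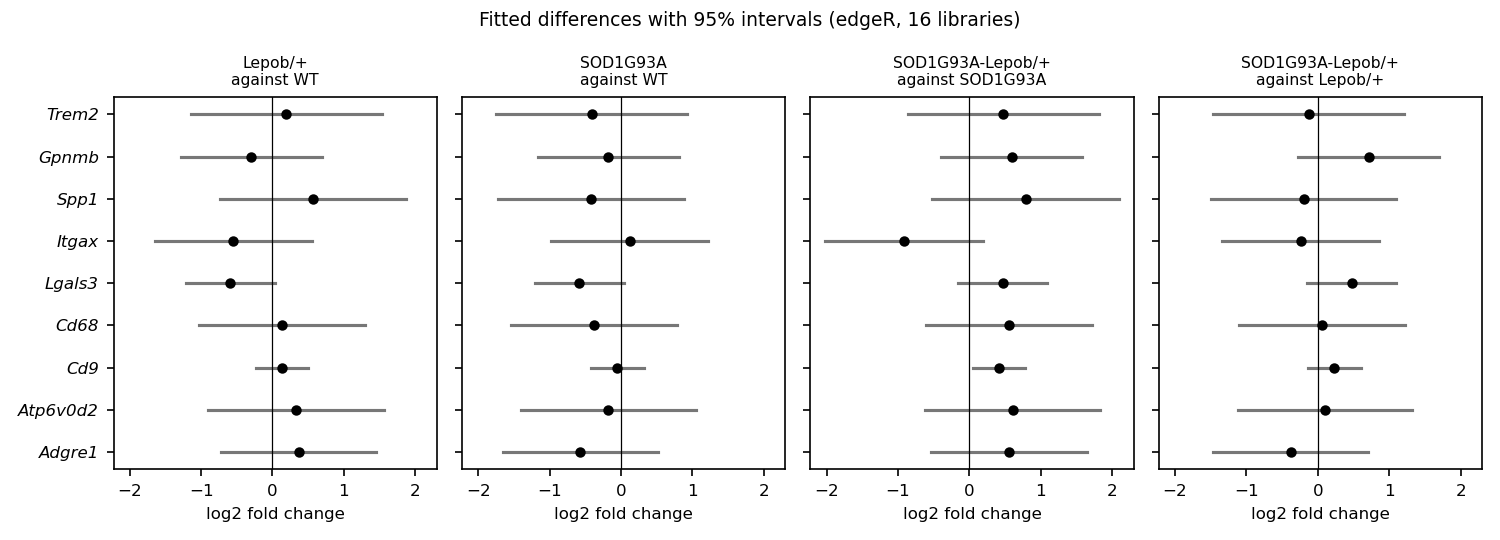
Fitted log2 fold change (horizontal axis) of each gene in the 4 comparisons of 2 genotypes, with 95% intervals from the edgeR fit of 16 libraries. Only the Cd9 interval in SOD1G93A-Lepob/+ against SOD1G93A, 0.05 to 0.79, lay off 0, and it did not pass the adjusted threshold.

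Taken by sign, 5 of the 8 genes were higher in Lepob/+ than in WT (median log2 fold change 0.13, against 0.03 over all genes, of which 55.6% were higher) and 1 was higher in SOD1G93A than in WT (median -0.28, against 0.02, with 53% of all genes higher). In SOD1G93A-Lepob/+ against SOD1G93A 7 were higher, all but Itgax (median 0.52, against 0.00), and 50.1% of all genes were. Against Lepob/+, 5 were higher (median 0.08, against -0.06, with 42.1% of all genes higher). SOD1G93A libraries enter 2 of these comparisons, with opposite sign. These are counts of signs and not of calls, and macrophage genes outside the set had like values: 11 of 12 macrophage core genes were higher in SOD1G93A-Lepob/+ than in SOD1G93A (median 0.52), as were 12 of 13 genes of resident adipose macrophages (median 0.54). Other cell types moved too, with 8 of 8 mature adipocyte genes (median 0.47), 7 of 7 of neutrophils and mast cells (0.41) and 6 of 8 of Schwann cells (0.41) higher, and all 10 T cell and all 10 B cell genes lower (medians -5.87 and -6.79). None of these lists was used as a covariate. The summed macrophage core counts were the scale in an alternative fit, in which none of the 8 genes passed the adjusted threshold. The part of the other lists in the members' values was not tested. With the lymph node stroma genes as a covariate, Trem2, Spp1, Atp6v0d2 and Itgax had the opposite sign in SOD1G93A-Lepob/+ against SOD1G93A, as given below.

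Set against Adgre1 by using its count as the scale, 0 of the 8 genes passed in any comparison, as did 0% of 19735 genes. The members' median log2 difference in SOD1G93A-Lepob/+ against SOD1G93A was then -0.03, with 3 higher and 5 lower, while the median over all genes was -0.56 and 10.8% of them were higher. Most of that shift over all genes comes from the scale, since Adgre1 itself was at 0.55 in this comparison after TMM scaling. The value nearest the threshold was that of Itgax in this comparison, -1.55 (SE 0.79, unadjusted p = 0.0600, adjusted p = 0.666), and 7.79% of all genes had an unadjusted p under 0.05. For Cd68 the 4 differences lay between -0.03 and 0.21, each with an SE of 0.58. That SE came from 1 fit that shares the spread over all libraries, Lepob/+ 4 included. The coefficient of variation of the Cd68 ratio itself was 8.26% in WT, 13.9% in SOD1G93A, 13.6% in SOD1G93A-Lepob/+ and 52.1% in Lepob/+.

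Across the 16 libraries the 8 genes did not form 1 group. Trem2, Cd68 and Atp6v0d2 followed the macrophage core genes (11 without Adgre1, among them Csf1r and Cd14), with Pearson's r of 0.87, 0.95 and 0.78 between log2 CPM and the mean of the list, and Spearman's rho of 0.80, 0.95 and 0.78. In the 10 libraries poor in lymph node genes r was 0.83, 0.92 and 0.67. The 3 also followed a list of 19 lysosomal genes (r 0.93, 0.90 and 0.91; 0.95, 0.94 and 0.80 in the 10). With the list of resident adipose macrophages Trem2 had r 0.91 (0.87 in the 10), so its course was not particular to the lipid-associated state. These correlations describe libraries that share a scale and a mix of cells, and no test was made of them.

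**Figure D4:**
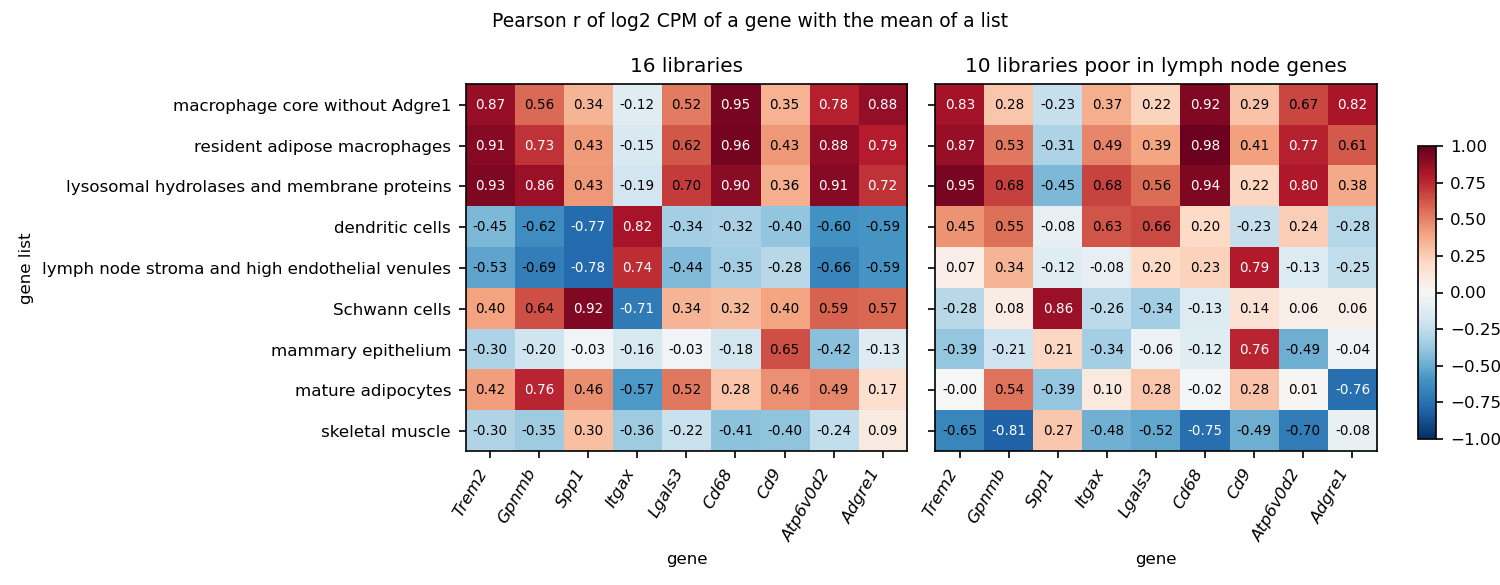
Pearson's r (colour and number) between the log2 CPM of each gene (columns) and the mean log2 CPM of 9 gene lists (rows), over 16 libraries (left) and over the 10 poor in lymph node genes (right). Trem2, Cd68 and Atp6v0d2 were near 0.8 or above with the macrophage and lysosomal lists on the left, Spp1 was highest with Schwann cells (0.92 and 0.86) and Cd9 with mammary epithelium (0.65) over 16 libraries.

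Gpnmb had r 0.86 with the lysosomal list (0.68 in the 10 libraries), 0.80 with the lipid handling genes of foamy macrophages (0.81) and 0.56 with the macrophage core (0.28). The lipid handling list shares Fabp4 with the mature adipocyte list. Gpnmb also had r 0.74 with Trem2, 0.69 with Cd68 and 0.79 with Atp6v0d2 over the 16 libraries. In the 10 libraries these values were 0.58, 0.58 and 0.52. The gene most like Gpnmb across the 16 libraries was Ctsk (r 0.94), the collagen-cutting cathepsin K of osteoclasts and fibroblasts, followed by Bri3 (0.94) and Vat1 (0.93). For Trem2 they were Loxl3 (0.96), the cytokine gene Il18 (0.95) and the lipid receptor Cd300lb (0.95). For Cd68 they were Ptafr, the receptor for platelet-activating factor, Slc9a9 and Hacd4, each at 0.97. Those of Atp6v0d2 were Serping1, the inhibitor of complement C1 (0.97), C1qtnf1 (0.96) and Rab11fip5 (0.96). These names are the highest of 19736 genes and carry no count of independent support.

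Spp1 followed the Schwann cell list, 8 genes of the glia that wrap peripheral nerve, with r 0.92 over the 16 libraries (rho 0.90), 0.86 in the 10 libraries and 0.93 without Lepob/+ 4. With the macrophage core its r was 0.34, and -0.23 in the 10. In the 6 libraries rich in lymph node genes it was 0.71 with the macrophage core, 0.84 with resident adipose macrophages and 0.69 with Schwann cells. The genes most like it were Fa2h (0.95), the enzyme that makes the hydroxylated lipids of myelin, Cldn19 (0.94), the claudin of Schwann cells, and Gatm (0.94). As mean log2 CPM the Schwann list spanned 4.88 to 5.78 (WT), 4.41 to 5.99 (Lepob/+), 4.49 to 5.64 for the SOD1G93A libraries and 5.13 to 5.70 for the SOD1G93A-Lepob/+ libraries. The part of nerve in the Spp1 values was not tested.

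Over the 16 libraries Itgax followed the dendritic cell list (r 0.82, rho 0.86) and not the macrophage core (-0.12). In the 10 libraries poor in lymph node genes it had r 0.63 with dendritic cells, 0.68 with the lysosomal list, 0.37 with the macrophage core and 0.59 with the mean of the other 7 genes, among them 0.79 with Lgals3 and 0.66 with Trem2. It also had r 0.80 (0.74 in the 10) with the 18 other genes of lipid-associated macrophages and 0.82 (0.70) with the B cell list. Since the libraries fall into the 6 and the 10 by their lymph node genes, the values over 16 rest in part on that split. The genes most like Itgax were H2-Eb1 (0.94) and H2-Ab1 (0.94), which encode MHC class II chains, and Fgr (0.94), a kinase of myeloid cells, and all stayed at 0.86 to 0.91 in the 10. Cd9 had r 0.65 with mammary epithelium and 0.35 with the macrophage core, and in the 10 libraries 0.76 with the former and 0.79 with the lymph node stroma list, all of whose levels there were low. Its nearest genes were Nipal2 (0.90), Rhpn2 (0.90) and Slco2a1 (0.88). The highest r of Lgals3 with any list was 0.70, with the lysosomal genes, and its nearest genes were Gda (0.83), Guca1a (0.82) and 5930412G12Rik (0.82).

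**Figure D5:**
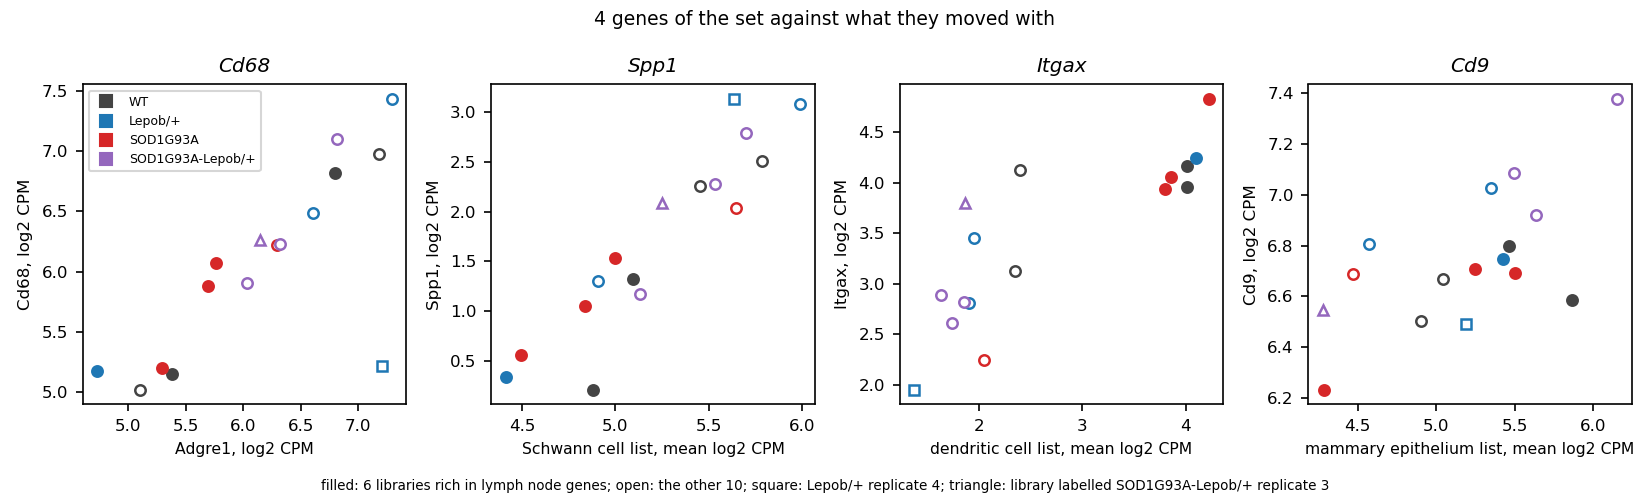
Log2 CPM (vertical axes) of Cd68 against Adgre1, and of Spp1, Itgax and Cd9 against the mean log2 CPM of the Schwann cell, dendritic cell and mammary epithelium lists (horizontal axes), 1 point a library. Lepob/+ 4 (square) lay off the Cd68 line, and the filled points, rich in lymph node genes, formed a group of their own in the Itgax panel.

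The partners of these genes were read from lists of their pathway. In the 5 comparisons 0 genes of any list passed the adjusted threshold, as did 0% of all genes, so that count is not particular to the lists. In the TREM2 signalling list, 5 of 11 genes were higher and 6 lower in SOD1G93A-Lepob/+ against SOD1G93A, 4 of the latter at an unadjusted p under 0.05, as were 12.3% of all genes. The lowest p belonged to Hcst (-3.00, SE 0.94, adjusted p = 0.261), the adaptor DAP10 that NK and T cells also use, and Inpp5d (-1.13, SE 0.43, adjusted p = 0.261), the phosphatase SHIP1 of blood cells. T cell genes had a median log2 fold change of -5.87 and all 10 were lower in the same comparison. Tyrobp, the adaptor of TREM2, was at 35.4 to 166 CPM over the 16 libraries, lowest in WT 3 and highest in Lepob/+ 2.

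Of 19 lysosomal genes 15 were higher in SOD1G93A-Lepob/+ than in SOD1G93A (median 0.30), against 50.1% of all genes. Cd63, a tetraspanin of late endosomes, was at 0.52 (SE 0.19, adjusted p = 0.261) and Ctsl, cathepsin L, at 0.64 (SE 0.31, adjusted p = 0.310). Against Lepob/+ 17 of the 19 lysosomal genes were higher (median 0.17), and 42.1% of all genes were. In SOD1G93A-Lepob/+ against SOD1G93A, 14 of 17 V-ATPase subunits other than Atp6v0d2 were higher (median 0.17), and the lowest p belonged to one that was lower, Atp6v0a2 (-0.60, SE 0.21, adjusted p = 0.261). There the list of TFEB, TFE3, MITF and their regulators had 5 of 9 higher, led by Mitf at 0.57 (SE 0.29, adjusted p = 0.336).

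In the list of lipid handling genes of foamy macrophages, 7 of 14 were higher in Lepob/+ than in WT, against 55.6% of all genes. As mean log2 CPM the list spanned 6.60 to 7.04 (WT) and 6.28 to 7.11 (Lepob/+). It spanned 6.70 to 7.03 for the SOD1G93A libraries and 6.94 to 7.04 for the SOD1G93A-Lepob/+ libraries. This list shares Fabp4 with the mature adipocyte list, and the part of adipocytes in its values was not tested. Npc1, which moves cholesterol out of lysosomes, had a log2 fold change of 0.44 (SE 0.15, unadjusted p = 0.0113) and Fabp5, a fatty acid binding protein, -0.92 (SE 0.34, unadjusted p = 0.0177), with an adjusted p of 1.00 for both. In SOD1G93A-Lepob/+ against Lepob/+ Npc1 was at -0.44 (SE 0.15, unadjusted p = 0.0108, adjusted p = 0.597). Both comparisons use the Lepob/+ libraries.

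Among 8 receptors of osteopontin, Itga4, the alpha 4 integrin chain of lymphocytes, was at -1.90 (SE 0.60, adjusted p = 0.261) in SOD1G93A-Lepob/+ against SOD1G93A, and Itgav, the alpha V chain, at 1.17 (SE 0.69, adjusted p = 0.396). Of 18 other genes of lipid-associated macrophages, 9 were higher and 9 lower in this comparison (median 0.13). The 2 with the lowest p were Cd300lf, a lipid receptor of myeloid cells (-2.51, SE 0.80), and Il7r, the interleukin-7 receptor chain better known from T cells (-5.64, SE 1.83), both at an adjusted p of 0.261. In SOD1G93A-Lepob/+ against Lepob/+, Mmp12, the macrophage elastase, was at 2.18 (SE 0.70, unadjusted p = 0.00767, adjusted p = 0.597).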

How the data were processed

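RNA was extracted from iWAT with Qiazol and a lipid tissue kit. The labels name a NEBNext Ultra kit and the study's methods TruSeq Stranded mRNA libraries. Per the labels and methods, the authors trimmed reads with fastp, aligned them to mm10 with HISAT2 (2.1.0 in the submitters' processing notes) and used featureCounts (2.0.2) to count the reads that mapped uniquely to each gene. The strand setting and annotation release are not given in the sources used here. What the authors deposited are unnormalized counts with a column for each library.

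Symbols were matched for 54723 of 54752 gene IDs. Genes passing edgeR's filterByExpr (minimum count 10, minimum total 15) were fitted in 1 fit of 16 libraries after TMM scaling. The robust quasi-likelihood test (edgeR 4.0.16, R 4.3.3) was two-sided, with Benjamini-Hochberg adjustment over all genes tested. It was run again with the log Adgre1 count as offset. The scripts were also run on simulated data for SOD1G93A-Lepob/+ against SOD1G93A. With TMM scaling, 8 of 100 altered genes were recovered at a simulated log2 change of 1. At 2 it was 39 of 50, and at 3 it was 50 of 50. With the Adgre1 offset these counts were 0 of 100, 6 of 50 and 46 of 50. A count of 0 of 8 thus leaves room for log2 changes near 1 on either scale, and near 2 with the Adgre1 offset. How far the recovered counts hold for the 8 genes themselves was not tested. Alternatives used DESeq2 1.42.0 and limma 3.58.1, other filters, scalings, reference genes and covariates, and left libraries out. The 8 genes and the lists were chosen with earlier results of these data known. Genes named are the 8, Adgre1, the 3 most like each member and, from each list, at most 2 with the lowest p in a comparison described. The comparisons described differed between lists. Sod1, Lep, Xist and transcripts sharing exons with a member were named for the checks given above. Csf1r, Tyrobp, Atp6v0d1, Adipoq and Acta1 were named after their values were seen. The p-values measure the spread between libraries, taken as 1 mouse each. Same-numbered libraries were checked for pairing and were not treated as pairs.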

Additional observations from a re-analysis of the deposited data

Results flagged for a closer look

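For each of the 8 genes and Adgre1, CPM and counts per 100 Adgre1 counts were examined in each genotype for 1 library that stood apart from the other 3 by Dixon's ratio (past its 95% critical value for 4 samples). It did in 8 of 68 groups of 4. By chance about 1 in 20 would be flagged, but that rate holds for independent samples with a normal spread. These groups share libraries and Adgre1 counts, so 8 of 68 cannot be judged against it.

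Gpnmb in SOD1G93A 3 was at 44.1 CPM, against 11.8 to 13 CPM in the other 3. Per 100 Adgre1 counts, Gpnmb in WT 3 was at 71.5 against 22.3 to 25.8, and Spp1 in WT 3 at 13.9 against 2.25 to 3.93. WT 3 had an Adgre1 level of 34.4 CPM, the lowest of its genotype. Spp1 in SOD1G93A 2 was at 2.83 per 100 Adgre1 counts, below 5.22 to 5.30 in the others.

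Itgax in the library labelled SOD1G93A-Lepob/+ replicate 3 was at 13.9 CPM against 6.09 to 7.39 CPM. Per 100 Adgre1 counts, Itgax in Lepob/+ 3 was at 71.4 against 2.62 to 7.18, in the 1 Lepob/+ library rich in lymph node genes. Cd9 in SOD1G93A 2 was at 75.2 CPM, below 103 to 105 CPM in the others. Atp6v0d2 in the library labelled SOD1G93A-Lepob/+ replicate 3 was at 5.59 per 100 Adgre1 counts against 2.14 to 2.66. Their causes were not tested.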

How the results depend on the processing

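Since edgeR called 0% of all genes in each comparison, its count of 0 of 8 says little about stability. That count was also 0 under the alternatives run, on either scale, except limma voom with quality weights, which called 3 in SOD1G93A-Lepob/+ against SOD1G93A. Under the alternatives 50 of 608 log2 fold changes of the 8 genes were opposite in sign to those reported. The causes were not tested. With lymph node stroma genes as a covariate the log2 fold changes of opposite sign were Atp6v0d2 -0.0048, Cd68 -0.065 and Trem2 -0.13 in Lepob/+ against WT, Atp6v0d2 0.071, Itgax -0.37 and Spp1 0.13 in SOD1G93A against WT, Atp6v0d2 -0.17, Itgax 0.10, Spp1 -0.28 and Trem2 -0.35 in SOD1G93A-Lepob/+ against SOD1G93A, and Atp6v0d2 -0.090, Cd68 -0.0019 and Itgax 0.19 against Lepob/+. With mammary epithelium genes as a covariate they were Cd68 -0.035 and Trem2 -0.052 in Lepob/+ against WT, Cd9 0.069 and Itgax -0.015 in SOD1G93A against WT, and Trem2 0.25 in SOD1G93A-Lepob/+ against Lepob/+. With voom they were Gpnmb 0.18 in Lepob/+ against WT, and Atp6v0d2 -0.51 and Cd68 -0.33 in SOD1G93A-Lepob/+ against Lepob/+. Without both Lepob/+ 4 and the library labelled SOD1G93A-Lepob/+ replicate 3 they were Atp6v0d2 -0.35, Cd68 -0.12 and Spp1 0.20 in the latter comparison.

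When 1 library was left out, values of either sign were reached by Trem2 (-0.76 to 0.76) and Cd68 (-0.50 to 0.45) in Lepob/+ against WT. In SOD1G93A against WT they were reached by Trem2 (-0.70 to 0.16), Gpnmb (-0.90 to 0.012), Itgax (-0.30 to 0.41), Cd9 (-0.10 to 0.044) and Atp6v0d2 (-0.63 to 0.32), and in SOD1G93A-Lepob/+ against Lepob/+ by Trem2 (-0.42 to 0.83), Spp1 (-0.52 to 0.17), Itgax (-0.57 to 0.25), Cd68 (-0.25 to 0.69) and Atp6v0d2 (-0.19 to 0.37).

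Groups shared replicate numbers, but only 5 of 24 same-numbered pairs of libraries had deviations that correlated above 0.1, and 8 were below -0.1, so the libraries were not taken as pairs. With the replicate block Trem2 was at 0.044 in SOD1G93A-Lepob/+ against Lepob/+, and 0 of 8 genes were called in each comparison. Atp6v0d2 and Spp1 rested on as few as 30 and 52 counts in a library, which limits their precision.

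Over all genes, edgeR called 0 in each comparison. In SOD1G93A-Lepob/+ against SOD1G93A DESeq2 called 562 genes on all libraries and 1771 on the compared genotypes, voom 6212, edgeR on the compared genotypes 2, and edgeR 3 without the library labelled SOD1G93A-Lepob/+ replicate 3. Against Lepob/+ the DESeq2 counts were 70 and 35 and that of voom 2. DESeq2 called 1 and 5 genes in Lepob/+ against WT, 3 and 14 in SOD1G93A against WT and 51 in the interaction on all libraries. The other alternatives called at most 2 genes.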
